A study of Homo sapiens with 12 samples.

Results

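The levels of 7 long non-coding RNAs were followed across 12 libraries: MALAT1, NEAT1, TUG1, DANCR, PVT1, PCGEM1 and PCA3. They were chosen by name, as abundant nuclear transcripts and as transcripts known from prostate cancer, and are 7 of the 63299 genes listed in the 2 deposited count tables. Of those genes, 34300 had a count in any library and 17191 passed the filter on low counts. All 7 passed it, PCA3 with 78 counts over all libraries and only through control libraries. These names stood on 9 rows of the tables, and the 2 extra rows, short segments inside MALAT1 (95 bases) and PCGEM1 (131 bases), had 0 counts in every library.

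The cells were LNCaP-shPRMT5, the prostate cancer line LNCaP with an inducible short hairpin RNA against PRMT5, a methyltransferase that places symmetric dimethyl marks on arginine. All 4 groups carried the hairpin and were grown in RPMI1640 with fetal bovine serum. The groups were irradiated knockdown (doxycycline at 1 µg/mL, renewed every 48 h, then 2 Gy), irradiated control (2 Gy without doxycycline), non-irradiated knockdown (the same doxycycline and no irradiation) and non-irradiated control (neither). Each had 3 libraries, and irradiated cells were collected 24 h after the dose. Doxycycline was given wherever the hairpin was induced, so effects of the drug and of the hairpin cannot be told apart. The irradiated and the non-irradiated libraries stand in separate tables of 6, so irradiation cannot be told apart from other differences between the tables. The labels do not say that replicates were separate cultures, and p-values then measure only the spread between these libraries, which may be technical. In bulk RNA, fewer cells that make a transcript and less of it per cell cannot be told apart.

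Long non-coding RNAs are transcribed and processed much like messenger RNAs but act as RNA. MALAT1 gathers in nuclear speckles, where splicing factors are stored, and NEAT1 is the scaffold around which paraspeckles assemble. Both come from neighbouring genes on chromosome 11 and end without an ordinary poly(A) tail in their long forms, and the libraries here were made from polyadenylated RNA. TUG1 is a broadly expressed RNA with nuclear and cytoplasmic pools, DANCR is a small nucleolar RNA (snoRNA) host transcript first described in undifferentiated epidermal cells, and PVT1 is transcribed from the region beside the MYC oncogene. PCGEM1 and PCA3 are largely restricted to prostate tissue, and PCA3 RNA in urine is used as a prostate cancer test.

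Promoters are shown for DANCR, which had the smallest adjusted p of the 7 in both knockdown comparisons, and for the prostate RNAs PCGEM1 and PCA3. As depth-scaled levels these 2 were lower in every knockdown library than in its numbered control, in 1 pair each by almost nothing or at equal counts. For PCA3 the filter favoured that direction. Each promoter is 300 bases of RefSeq sequence (GRCh38.p14, plus strand), 250 before the annotated start and 50 from it, read 5′ to 3′. Where RefSeq lists several starts the first by position was taken. RefSeq promoters were matched for 5 of the 7 RNAs. Capitals mark 3 short words searched on both strands: the TATA box word TATAAA, the CCAAT box word CCAAT and the E-box word CACGTG. The windows are chr4:52712144-52712443 for DANCR, chr2:192749595-192749894 for PCGEM1 and chr9:76764186-76764485 for PCA3.
DANCR: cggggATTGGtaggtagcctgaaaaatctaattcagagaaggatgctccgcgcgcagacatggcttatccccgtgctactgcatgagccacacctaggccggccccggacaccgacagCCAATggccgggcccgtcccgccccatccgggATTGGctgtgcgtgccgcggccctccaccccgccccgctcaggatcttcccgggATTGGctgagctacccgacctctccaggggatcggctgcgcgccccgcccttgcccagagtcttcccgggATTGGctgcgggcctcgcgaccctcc
PCGEM1: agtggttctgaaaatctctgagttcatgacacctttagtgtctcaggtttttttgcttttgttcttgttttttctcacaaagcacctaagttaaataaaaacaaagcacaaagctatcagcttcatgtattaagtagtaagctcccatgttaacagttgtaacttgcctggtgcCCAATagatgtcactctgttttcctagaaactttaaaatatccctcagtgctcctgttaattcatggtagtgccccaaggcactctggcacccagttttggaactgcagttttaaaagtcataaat
PCA3: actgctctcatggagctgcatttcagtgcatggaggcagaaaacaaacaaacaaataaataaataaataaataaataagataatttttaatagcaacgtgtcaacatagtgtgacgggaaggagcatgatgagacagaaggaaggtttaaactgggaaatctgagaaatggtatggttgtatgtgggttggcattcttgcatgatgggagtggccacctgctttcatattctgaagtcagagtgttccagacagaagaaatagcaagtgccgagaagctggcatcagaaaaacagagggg

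The DANCR window holds the CCAAT word 5 times, once as written and the other times as its reverse complement ATTGG. Counted with the start site as 1 and the base before it as -1, their first bases are at -245, -132, -100, -46 and 25. At least 1 CCAAT word stands in 34.6% of 35116 RefSeq promoters of this length, and 5 or more stand in 0.359%. The PCGEM1 window holds 1 CCAAT word at -76. None of the 3 words is in the PCA3 window, and none is in that of MALAT1, which is 73.7% G and C. The TUG1 window holds 2 CCAAT words and 1 E-box word, a word found in 7.26% of promoters. The TATA word, found in 11.5% of promoters, is in none of the 5 windows. A word in a window is a match of letters and not evidence of a bound factor.

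Gene positions are those of the deposited tables, on GRCh38, all on the plus strand. MALAT1 lies on chromosome 11 from 65497762 to 65506516 and NEAT1 on the same chromosome from 65422774 to 65445540. TUG1 lies on chromosome 22 from 30970677 to 30979395, and DANCR on chromosome 4 from 52712404 to 52720351. PVT1 spans chromosome 8 from 127794533 to 128101253. PCGEM1 lies on chromosome 2 from 192749845 to 192776899, and PCA3 on chromosome 9 from 76764436 to 76787569.

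The libraries held 14801939 to 33158865 counts. PRMT5 was measured first as a check of the labels. In irradiated knockdown libraries it stood at 31.3, 26.9 and 24.9, in CPM (counts relative to library size, after TMM scaling), against 230, 187 and 187 in irradiated controls. Without irradiation it stood at 26.6, 30.8 and 32.8 CPM in knockdowns, against 186, 190 and 198 in controls. The groups did not overlap, and the exact permutation test, 2-sided, gave p = 0.1 in each state, the smallest that 3 against 3 allows. Prostate luminal markers were high throughout, with KLK3 between 1782 and 4078 CPM and FOLH1 between 1305 and 2637 CPM. The leukocyte genes PTPRC and CD3E, the fibroblast gene COL1A2, the neuroendocrine gene CHGA and the basal gene TP63 lay between 0 and 0.0629 CPM. Other markers of these types were present at low level, with the fibroblast gene COL1A1 at 11.5 to 22.9 CPM and the basal genes KRT5 at up to 8.44 and KRT14 at up to 4.96 CPM. The 3 fibroblast markers summed to 15.6 to 19.5 CPM in irradiated knockdowns and 12.3 to 20.0 in irradiated controls, and to 14.8 to 21.6 in non-irradiated knockdowns and 11.5 to 23.2 in non-irradiated controls. The 3 basal markers summed to 0.738 to 3.34 CPM in irradiated knockdowns and 0.870 to 4.96 in irradiated controls, and to 0.732 to 9.81 in non-irradiated knockdowns and 1.01 to 6.47 in non-irradiated controls. The 3 leukocyte markers summed to at most 0.153 CPM in any library. Summed, 5 luminal markers (KLK3, KLK2, FOLH1, KRT8 and KRT18) ranged from 5655 to 5957 CPM in irradiated knockdowns and from 6286 to 7297 in irradiated controls, and from 4887 to 5499 in non-irradiated knockdowns and from 5389 to 5855 in non-irradiated controls. The 3 neuroendocrine markers, nearly all of it ENO2, summed to 25.5 to 47.9 CPM in irradiated knockdowns and 27.3 to 45.3 in irradiated controls, and to 69.7 to 95.9 in non-irradiated knockdowns and 53.8 to 82.1 in non-irradiated controls. The part of these differences in the results was not tested.

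Both irradiated libraries numbered 1 stood apart from the rest. Their root mean square deviation from the group means over all genes was 0.449 log2 units in the knockdown and 0.516 in the control, against 0.253 to 0.353 in the other libraries. Among the irradiated libraries these had the lowest MALAT1, NEAT1 and TUG1 of their groups and the highest DANCR and PVT1. Calls of the 7 RNAs in irradiated libraries are given with and without them. The count ratios of PCA3, and the knockdown fold changes of NEAT1 and TUG1 with irradiation, are not given without both. For PCA3 they held 8 counts in the knockdown and 20 in the control. Of the edgeR calls given further on for gene lists and neighbouring genes in comparisons with irradiated libraries, that of PCAT14 alone was lost without both.

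Levels between genes were compared as RPKM, which divides CPM by the length of the merged exons in kilobases. MALAT1 averaged 145 RPKM over the 12 libraries and ranked 189 of 17191 genes. DANCR followed at 86.4 (rank 371), TUG1 at 65.3 (rank 542) and NEAT1 at 54.4 (rank 689). PVT1 averaged 11.4 RPKM (rank 4327), PCGEM1 5.64 (rank 7264) and PCA3 0.0654 (rank 16957). The merged exons of NEAT1 come to 22767 bases, so the level of an RNA that exists mostly in a shorter form is understated. Per kilobase of the longest transcript DANCR averaged 218.5 CPM and MALAT1 145.5, the other way round from RPKM, and PVT1 averaged 36.9, TUG1 59.4 and NEAT1 54.4. Over all libraries MALAT1 (73.9 to 218 RPKM) overlapped DANCR (48.3 to 144), DANCR overlapped TUG1 (37.5 to 77.2), and TUG1 overlapped NEAT1 (39.0 to 67.6). PVT1 (8.99 to 14.4 RPKM) lay below all of these and overlapped PCGEM1 (2.38 to 14.7), while PCA3 never exceeded 0.195. Between 1.69% (NEAT1) and 23.3% (MALAT1) of the exon bases of these RNAs lie under another listed gene, and each such gene had at most 89 counts over all libraries. MALAT1 and TUG1 (21.5%) are mostly overlapped from the opposite strand.

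With merged exon lengths, the order of DANCR and TUG1 differed between groups on the RPKM scale. DANCR stood at 144, 104 and 116 RPKM in irradiated knockdowns, where TUG1 stood at 46.2, 77.2 and 68.1. It stood at 119, 72.2 and 78.7 in irradiated controls, where TUG1 stood at 37.5, 71.2 and 64.9. In non-irradiated knockdowns DANCR stood at 86.5, 74.4 and 83.6 RPKM and TUG1 at 64.7, 67.9 and 73.5. In the 3 non-irradiated controls the order was the other way round, with DANCR at 51.7, 58.5 and 48.3 and TUG1 at 70.5, 65.3 and 76.6. This order depends on the length used. The merged exons of DANCR come to 2285 bases and its longest GENCODE 29 transcript to 904. Per kilobase of the longest transcript DANCR lay above TUG1 in non-irradiated controls as well, at 122 to 148 CPM per kilobase, where TUG1 (7469 bases) lay at 59.4 to 69.6.

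**Figure D1:**
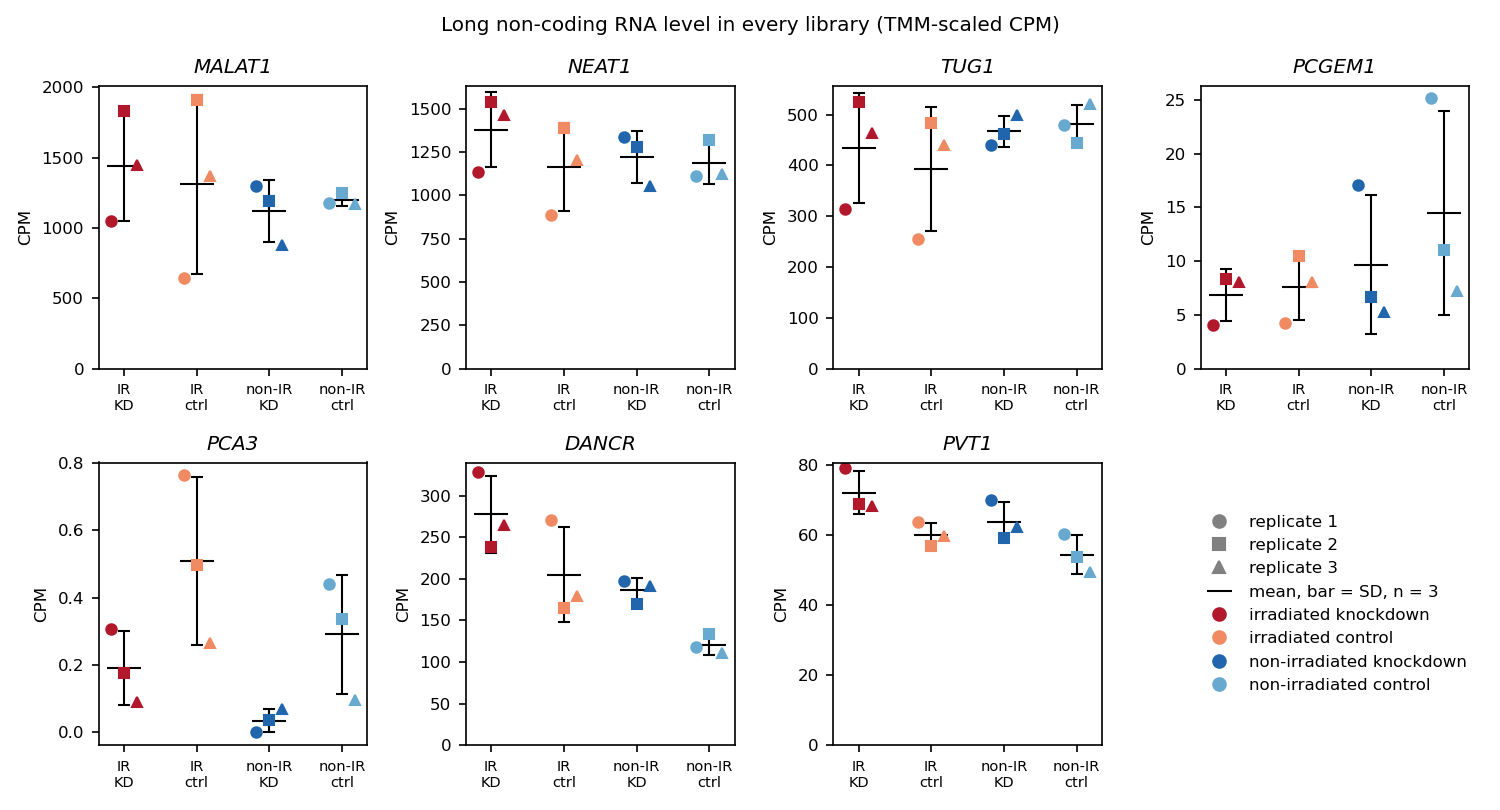
Level of each long non-coding RNA in every library, in TMM-scaled CPM on a linear axis, with replicates as symbols and the group mean ± SD in black (n = 3). DANCR is lowest in the 3 non-irradiated controls (110 to 134 CPM), while MALAT1 and NEAT1 groups overlap throughout.

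The first question of the design is what knockdown of PRMT5 did to these RNAs. In edgeR's quasi-likelihood test with Benjamini-Hochberg adjustment over all genes, 0 of the 7 were called at an adjusted p under 0.05 with irradiation, where 0.297% of genes were called, and 0 without it, where 1.54% were. At an unadjusted p under 0.05 there were 3 with irradiation (DANCR, PVT1 and PCA3), against 9.28% of all genes, and 2 without it (DANCR and PCA3), against 17.4%. DESeq2 called 0 with irradiation, where it called 1.88% of the genes it gave an adjusted p, and 1 without it, DANCR, where it called 6.48%. Replicate numbers paired the libraries within each table, and a fit with the number as a block called 2 of the 7 with irradiation, where 11.5% of all genes were called, and 4 without it, where 27.8% were. With irradiation these were DANCR and PVT1, both higher (5.43% of all genes were called higher and 6.05% lower). Without it they were DANCR and PVT1, higher, and PCGEM1 and PCA3, lower (13.7% and 14.1% of all genes). PCA3 passed the filter only through control libraries, so selection favoured its lower level, and its place in all these counts is a description. Called higher in both states with the block were 2 of the 7, against 3.94% of all genes. Differences of the 7 described next were called only with the block unless stated.

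DANCR was higher in knockdown cells in both states. It stood at 329, 239 and 265 CPM in irradiated knockdowns, against 271, 165 and 180 in irradiated controls. Within each number the knockdown library was the higher, though the groups overlapped because of irradiated control 1. The difference was 0.44 on the log2 scale (SE 0.18, edgeR adjusted p = 0.498), and with the block DANCR rose at 0.46 (SE 0.09, edgeR adjusted p = 0.00889). Without irradiation DANCR stood at 198, 170 and 191 CPM in knockdowns, against 118, 134 and 110 in controls, and the groups did not overlap. The log2 fold change there was 0.63 (SE 0.19, 95% interval 0.22 to 1.03, edgeR adjusted p = 0.112), a 1.54-fold difference. With the block it was also 0.63, with an SE of 0.09 and an edgeR adjusted p of 0.000699. Of all genes, 31.1% had groups that did not overlap in that comparison. DANCR was called in irradiated cells without any block once both irradiated libraries numbered 1 were left out, at a log2 fold change of 0.55 (SE 0.12, edgeR adjusted p = 0.0388), and with the block as well (edgeR adjusted p = 0.0104). Leaving out irradiated control 1 alone also gave a call, at 0.69 (edgeR adjusted p = 0.0405), while leaving out irradiated knockdown 1 gave 0.28 (edgeR adjusted p = 0.609) and irradiated control 2 also 0.28 (edgeR adjusted p = 0.770).

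PVT1 differed by less, and in the same direction in every pair. It stood at 79.2, 68.9 and 68.2 CPM in irradiated knockdowns, against 63.7, 56.9 and 59.8 in irradiated controls. These groups did not overlap, which was so for 13.5% of all genes. Its log2 fold change was 0.26 (SE 0.11, edgeR adjusted p = 0.506), and with the block 0.26 (SE 0.06, edgeR adjusted p = 0.0229). Without both irradiated libraries numbered 1 the blocked value was 0.23, and PVT1 was no longer called (edgeR adjusted p = 0.0715). In non-irradiated cells PVT1 stood at 70.1, 59.3 and 62.2 CPM in knockdowns and at 60.3, 53.6 and 49.4 in controls, groups that overlapped slightly. The log2 fold change there was 0.23 (SE 0.11, edgeR adjusted p = 0.323), and with the block 0.23 (SE 0.06, edgeR adjusted p = 0.0197).

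PCGEM1 was low, at 106 to 401 counts a library, with a coefficient of variation of 35.0% to 66.7% within groups. It stood at 4.07, 8.37 and 8.04 CPM in irradiated knockdowns, against 4.28, 10.5 and 8.08 in irradiated controls. Those groups overlapped, and the log2 fold change of -0.16 was not called without the block (edgeR adjusted p = 0.971) or with it (-0.14, edgeR adjusted p = 0.480). In non-irradiated cells it stood at 17.1, 6.69 and 5.26 CPM in knockdowns, against 25.2, 11.0 and 7.18 in controls. Both libraries numbered 1 were far above the others of their groups, so the groups overlapped although each knockdown was below its own control. The log2 fold change was -0.59 (SE 0.54, edgeR adjusted p = 0.619), and PCGEM1 fell with the block at -0.58 (SE 0.12, edgeR adjusted p = 0.00425). Without non-irradiated control 1 the unblocked value was 0.07 (edgeR adjusted p = 0.973).

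PCA3 was close to the limit of detection. It passed the filter only through controls, at 0.687 and 0.483 CPM before TMM scaling in irradiated and 0.473 in non-irradiated ones. No knockdown library exceeded 0.281 on that scale. A gene kept in this way stands higher in controls by selection, so its differences and calls are given as a description. It had 8, 5 and 2 counts in irradiated knockdowns, against 20, 16 and 7 in irradiated controls, and 0, 1 and 2 counts in non-irradiated knockdowns, against 7, 8 and 2 in non-irradiated controls. As CPM the groups overlapped with irradiation and did not overlap without it, by the margin between 0.0692 in the highest knockdown and 0.0958 in the lowest control. Without irradiation 31.1% of all genes had groups that did not overlap. Summed and scaled by depth, the ratio of knockdown to control was 0.385 with irradiation (15 against 43 counts, 95% exact interval 0.199 to 0.707) and 0.141 without it (3 against 17 counts, 0.0265 to 0.488), intervals that cover counting error only. The exact permutation test of its CPM, 2-sided, gave p = 0.2 with irradiation and p = 0.1 without it. The fitted log2 fold changes, which for so few counts depend on the prior count, were -1.37 (edgeR adjusted p = 0.524, with the block -1.40 and 0.0931) and -2.71 (edgeR adjusted p = 0.136, with the block -2.63 and 0.0307). PCA3 lies inside PRUNE2, which runs on the opposite strand at a mean of 864 CPM, and the strand setting of the counting is not given in the sources used here, so reads from PRUNE2 introns and from PCA3 cannot be told apart. PRUNE2 itself was not called, at log2 fold changes of -0.07 with irradiation and -0.04 without it (edgeR adjusted p = 0.985 and 0.977).

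**Figure D2:**
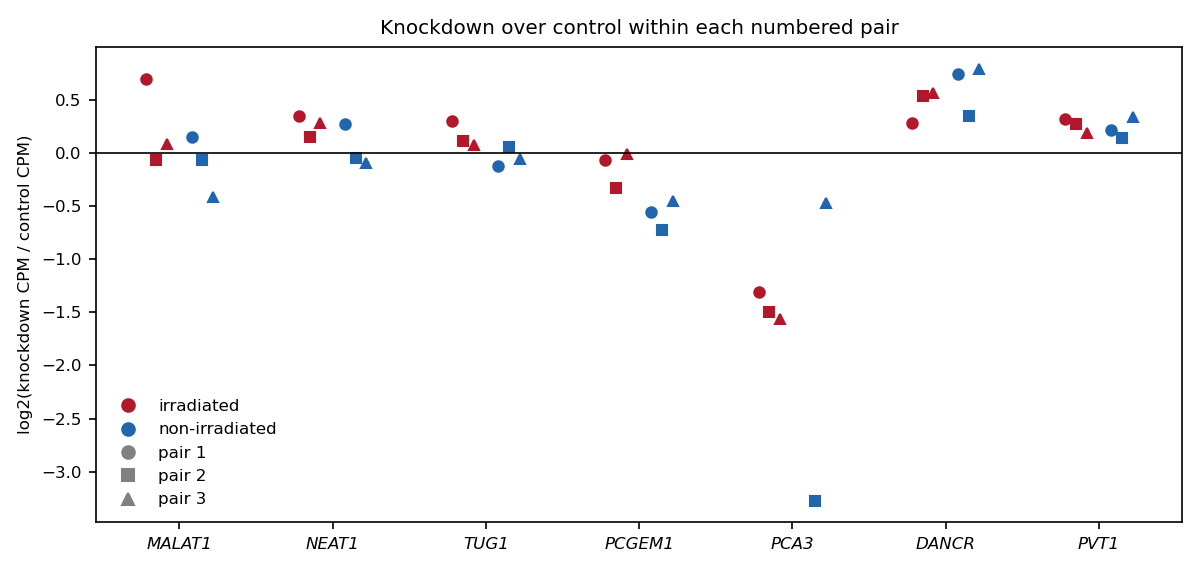
Log2 ratio of knockdown to control CPM within each numbered pair, for irradiated (red) and non-irradiated (blue) libraries. DANCR and PVT1 lie above 0 in all 6 pairs and PCGEM1 and PCA3 below it; non-irradiated pair 1 of PCA3 is not drawn because the knockdown library had 0 counts.

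Across the 6 pairs, DANCR and PVT1 were higher in the knockdown library of every pair, as 14.5% of all genes were, and PCGEM1 and PCA3 lower in every pair, as 14.4% were. In irradiated pair 3 the log2 ratio of PCGEM1 was only -0.0059. PCA3 had 2 counts in each library of non-irradiated pair 3, so its order there rests on depth scaling. PCA3 also passed the filter only through control libraries, so selection favoured its direction, which is given as a description. NEAT1 was higher in 4 of 6 pairs, TUG1 in 4 and MALAT1 in 3.

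The nuclear scaffold RNAs were not called in either state. MALAT1 stood at 1046, 1829 and 1449 CPM in irradiated knockdowns, against 647, 1912 and 1370 in irradiated controls, and the groups overlapped. Its log2 fold change was 0.14 with a 95% interval from -0.56 to 0.83 (edgeR adjusted p = 0.949). In non-irradiated cells it stood at 1298, 1191 and 875 CPM in knockdowns, against 1174, 1245 and 1167 in controls. The log2 fold change there was -0.09, with an interval from -0.79 to 0.60 (edgeR adjusted p = 0.918). The irradiated value was -0.0013 without both irradiated libraries numbered 1.

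NEAT1 stood at 1133, 1540 and 1467 CPM in irradiated knockdowns, against 889, 1392 and 1206 in irradiated controls. Each knockdown library was above its numbered control, but the groups overlapped, and the log2 fold change of 0.25 (95% interval -0.14 to 0.64) was called neither without the block (edgeR adjusted p = 0.734) nor with it (0.26, edgeR adjusted p = 0.0656). In non-irradiated cells NEAT1 stood at 1337, 1282 and 1052 CPM in knockdowns and at 1110, 1323 and 1124 in controls, with a log2 fold change of 0.05 (95% interval -0.35 to 0.44, edgeR adjusted p = 0.931).

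TUG1 stood at 314, 524 and 463 CPM in irradiated knockdowns, against 255, 484 and 441 in irradiated controls, and at 440, 462 and 499.5 CPM in non-irradiated knockdowns, against 479, 443 and 520 in non-irradiated controls. The groups overlapped in both states. Its log2 fold change was 0.14 with irradiation (95% interval -0.36 to 0.64, edgeR adjusted p = 0.920) and -0.04 without it (-0.54 to 0.46, edgeR adjusted p = 0.951). These intervals leave room for changes in either direction and do not show that the levels were alike.

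**Figure D3:**
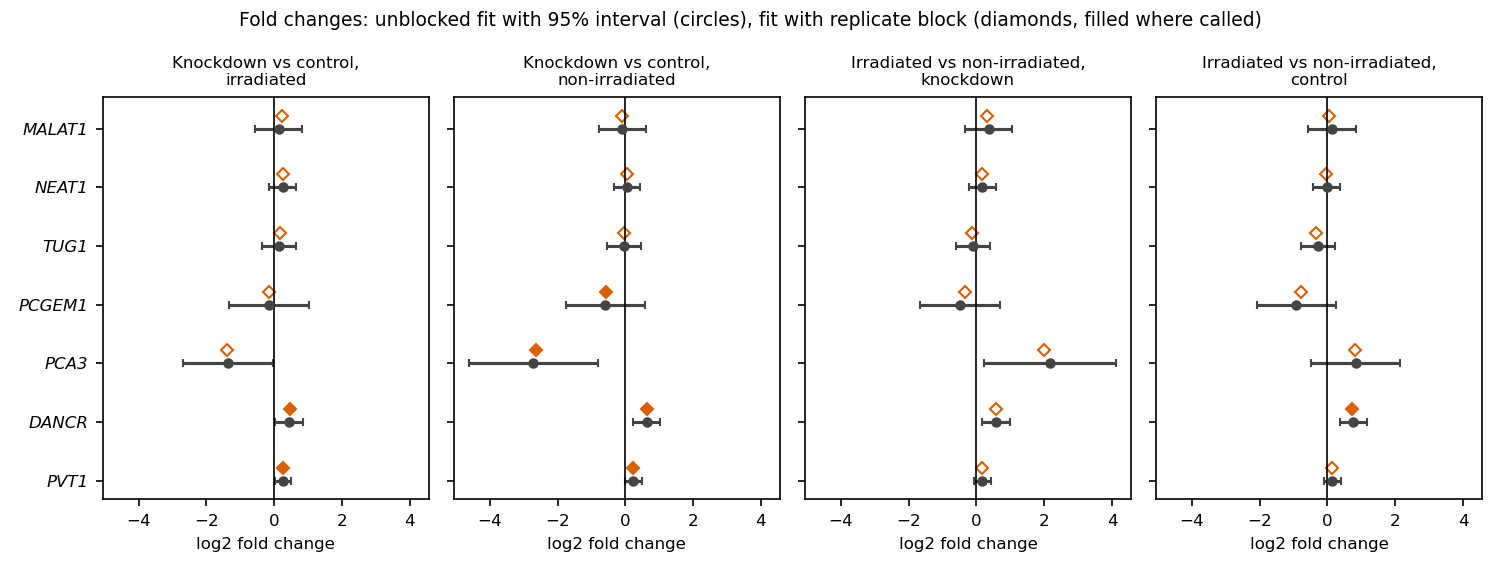
Log2 fold change of each RNA in 4 comparisons on a shared axis: circles are the fit without a block, with 95% intervals, and diamonds the fit with the replicate block, filled where called. In the 2 knockdown panels the filled diamonds are DANCR and PVT1 with irradiation and DANCR, PVT1, PCGEM1 and PCA3 without it; the one for DANCR in controls (0.73) is from libraries that share only a number.

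Irradiated and non-irradiated libraries were compared next, in knockdowns and in controls, across the 2 tables. None of the 7 was called by edgeR in knockdowns, where 3.58% of all genes were, or in controls, where 2.26% were. At an unadjusted p under 0.05 there were 2 in knockdowns (DANCR and PCA3), against 20.9% of all genes, and 1 in controls (DANCR), against 21.8%. DESeq2 called 0 in knockdowns (8.38% of the genes it gave an adjusted p) and 1 in controls, DANCR (8.02%). Libraries share only a number across tables, so results here are given without the block. A block by number across tables was fitted only as an alternative. With it DANCR alone of the 7 was called, in controls (0.73, edgeR adjusted p = 0.0322).

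Of the 7, DANCR had the smallest adjusted p between irradiated and non-irradiated libraries. Irradiated knockdowns (239 to 329 CPM) lay above non-irradiated knockdowns (170 to 198), and irradiated controls (165 to 271) above non-irradiated controls (110 to 134), without overlap. Its log2 fold change was 0.58 in knockdowns (SE 0.19, edgeR adjusted p = 0.111) and 0.77 in controls (SE 0.19, edgeR adjusted p = 0.0539). Groups did not overlap for 29.8% of all genes in knockdowns and 27.6% in controls. Without both irradiated libraries numbered 1 the values were smaller but passed the test, at 0.44 in knockdowns (edgeR adjusted p = 0.0247) and 0.51 in controls (edgeR adjusted p = 0.0193). Mitochondrially encoded transcripts took 6.55% to 7.43% of the counts in irradiated and 5.23% to 6.19% in non-irradiated libraries, and their part in the result was not tested.

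PCA3 did not overlap between irradiated and non-irradiated knockdowns, as for 29.8% of all genes. That rests on depth scaling, because both knockdown libraries numbered 3 had 2 counts (0.0899 CPM with irradiation and 0.0692 without it). Summed, PCA3 had 15 against 3 counts, a depth-scaled ratio of 4.93 (95% exact interval 1.40 to 26.6), and 8 of the 15 were in irradiated knockdown 1. Its log2 fold change in knockdowns was 2.17 (SE 0.89, edgeR adjusted p = 0.193). In controls it had 43 counts with irradiation against 17 without it, a depth-scaled ratio of 1.81 (95% exact interval 1.01 to 3.38), and overlapped. PCGEM1 had log2 fold changes of -0.49 in knockdowns and -0.92 in controls (edgeR adjusted p = 0.641 and 0.334), with non-irradiated libraries numbered 1 the highest. Without non-irradiated control 1 the value in controls was -0.26 (edgeR adjusted p = 0.817). PVT1 had 0.18 and 0.14 (edgeR adjusted p = 0.403 and 0.469), MALAT1 0.36 and 0.13 (0.551 and 0.834), NEAT1 0.17 and -0.03 (0.620 and 0.940), and TUG1 -0.11 and -0.29 (0.826 and 0.470). When libraries were scaled by total count alone, the median of all genes in these comparisons moved by -0.15, and MALAT1 and PVT1 in controls moved to -0.0039 and -0.013.

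The difference between the knockdown effects with and without irradiation was called by edgeR for 0 of the 7 and for 0% of all genes, with the block and without it. None of the 7 had an unadjusted p under 0.05 in edgeR, against 2.04% of all genes, and DESeq2 called 0. For DANCR the difference was -0.19 (95% interval -0.76 to 0.38) and for PVT1 0.03 (-0.32 to 0.38). For PCGEM1 it was 0.42 (-1.23 to 2.08), so its call with the block in non-irradiated cells and not in irradiated cells does not show that the effects differed.

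MALAT1 and NEAT1 varied together between libraries. Over the 12 libraries the Pearson correlation of their log2 CPM was 0.91 and the Spearman correlation 0.91. It was 0.94 within the 6 irradiated libraries, 0.78 within the 6 non-irradiated ones and 0.83 without both irradiated libraries numbered 1. The points share library preparation and scaling, and are given as a description. NEAT1 had between 0.728 and 1.37 counts per MALAT1 count, the lowest in irradiated control 2 and the highest in irradiated control 1. Together both took 0.138% to 0.323% of the counts of a library.

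**Figure D4:**
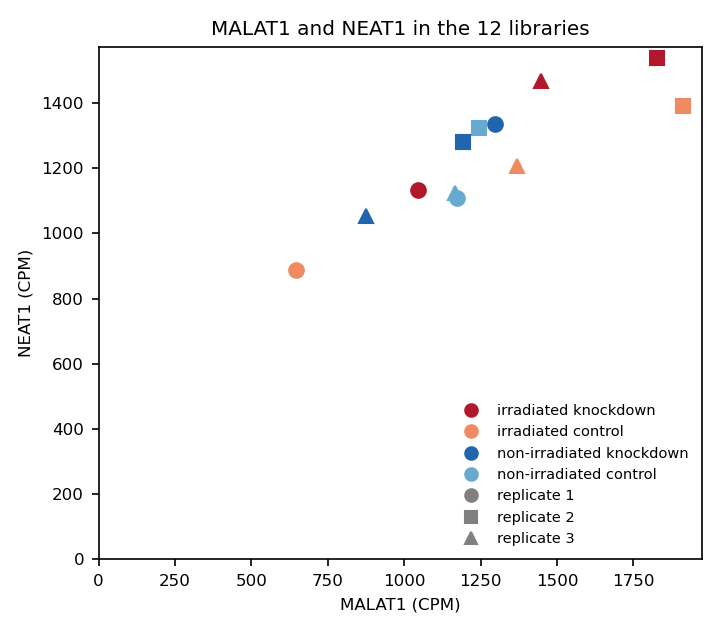
NEAT1 against MALAT1 level in the 12 libraries, in TMM-scaled CPM, coloured by group with replicates as symbols. Irradiated control 1 has the lowest MALAT1 and NEAT1 (647 and 889 CPM), and the irradiated libraries span a wider range than the non-irradiated ones.

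DANCR and PVT1 also varied together, with a Pearson correlation of 0.86 over 12 libraries (Spearman 0.86), 0.91 within the irradiated and 0.80 within the non-irradiated libraries, and 0.84 without both irradiated libraries numbered 1. Both RNAs were higher in the knockdown of all 6 pairs, so these correlations include differences between groups and are given as a description. TUG1 did not keep one relation to the nuclear pair. Its correlation with MALAT1 was 0.97 within the irradiated and -0.60 within the non-irradiated libraries, and with NEAT1 0.95 and -0.88. Without both irradiated libraries numbered 1, the correlation of TUG1 was 0.07 with MALAT1 and -0.11 with NEAT1 over the remaining libraries, against 0.67 and 0.61 over all 12.

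The genes whose log2 CPM followed each RNA most closely over the 12 libraries were sought among 10813 genes with a mean of at least 5 CPM. For MALAT1 they were SNX13 (Pearson correlation 0.96), FAM172A (0.96) and RPRD1A (0.95), and for NEAT1 DNAH14, SMIM19 and TWF1 (each 0.92). For TUG1 they were ACAP2 (0.99), USP9Y (0.98) and TET2 (0.98), which came to 0.84, 0.76 and 0.79 without both irradiated libraries numbered 1. For the other members these correlations were 0.87 to 0.97 without them. All these genes were picked as the highest of 10813 over the 12 libraries, so high values follow partly from that choice. Their correlations are given as a description. PCGEM1 was followed by KCNJ3 (0.93), ROBO3 (0.93) and BCL6 (0.92). PCA3 was followed by SRPK1 (0.95), VKORC1L1 (0.93) and PUDP (0.93), with the caution that its own values rest on few counts. DANCR was followed by ASB13 (0.98), PAFAH1B2 (0.98) and SOX12 (0.97), and PVT1 by RNF44 (0.95), GRAMD1A (0.95) and TPM4 (0.94).

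Genes beside the 7 loci were read in the same fits. Without the block, none of those named was called in either knockdown comparison. With it, 11.5% of all genes were called in irradiated and 27.8% in non-irradiated cells. Between irradiated and non-irradiated libraries, 3.58% of all genes were called in knockdowns and 2.26% in controls. MYC, a transcription factor that drives growth genes, lies 53.1 kb before PVT1 on the same strand. Its log2 fold changes in the knockdown were 0.19 with irradiation and 0.13 without it (edgeR adjusted p = 0.775 and 0.725, not called with the block). In irradiated against non-irradiated knockdowns MYC rose at 0.73 (SE 0.16, edgeR adjusted p = 0.0336), and in controls it had 0.66 (SE 0.16, edgeR adjusted p = 0.0510). FAM49B, the next tested gene after PVT1 at 1738 kb, rose at 0.64 in both (edgeR adjusted p = 0.0403 in knockdowns and 0.0494 in controls), and in the knockdown with the block at 0.26 in irradiated and 0.26 in non-irradiated cells (edgeR adjusted p = 0.0472 and 0.0335).

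On chromosome 11, CMB9-22P13.1, a transcript lying between NEAT1 and MALAT1 on the same strand at a mean of 10.1 CPM, was higher in the knockdown with the block, at 0.50 in irradiated and 0.55 in non-irradiated cells (edgeR adjusted p = 0.0291 and 0.00998). It is 9.72 kb after NEAT1 and 31.0 kb before MALAT1, which were not called. FRMD8, 9.25 kb before NEAT1, was higher with the block in non-irradiated cells at 0.41 (edgeR adjusted p = 0.00469). MORC2, a chromatin regulator read in the opposite direction 2.38 kb before TUG1, was higher with the block in non-irradiated cells at 0.22 (edgeR adjusted p = 0.0120), and SMTN, after TUG1, was not called.

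Beside PCA3, GCNT1, a mucin-type glycosyltransferase 257 kb before it, was lower with the block at -0.34 in irradiated and -0.71 in non-irradiated cells (edgeR adjusted p = 0.0134 and 9.66e-05). Beside PCGEM1, AC013401.2 at a mean of 1.48 CPM was lower with the block at -1.12 in irradiated and -1.67 in non-irradiated cells (edgeR adjusted p = 0.0293 and 0.00150). SLC39A10, a zinc importer after PCGEM1, was not called in any comparison, and neither were SNORA26, the snoRNA inside DANCR, USP46-AS1 before it and ERVMER34-1 after it. AP000769.1 across MALAT1, RPS17P8 inside PCGEM1, FOXB2 after PCA3, and RNU1-106P and MIR1206 inside PVT1, at means of 0.321 to 1.41 CPM, were not called either.

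DANCR was set beside 14 other snoRNA host genes, whose introns carry snoRNAs that guide chemical modification of ribosomal RNA. In irradiated knockdown against control 0 of the 14 were called by edgeR, with 10 positive values and a median log2 fold change of 0.06 (all genes -0.01). DESeq2 called 0 as well, and 1 had an unadjusted p under 0.05, against 9.28% of all genes. With the block 2 were higher, SNHG3 at 0.46 (edgeR adjusted p = 0.00302) and SNHG15 at 0.29 (edgeR adjusted p = 0.0357), against 5.43% of all genes. In non-irradiated cells 2 fell without the block, where 1.54% of all genes were called, with a median of -0.17 (all genes 0.00453). EPB41L4A-AS1 had 20.0, 21.6 and 18.3 CPM in knockdowns, against 37.6, 40.7 and 36.9 in controls, a log2 fold change of -0.94 (SE 0.15, edgeR adjusted p = 0.0130). SNHG8 had 41.8, 45.1 and 42.4 CPM in knockdowns, against 63.6, 73.5 and 77.3 in controls, a log2 fold change of -0.73 (SE 0.14, edgeR adjusted p = 0.0318). DESeq2 called both and GAS5, against 6.48% of all genes. With the block 5 were higher (SNHG3, SNHG7, SNHG15, SNHG16 and SNHG17), against 13.7% of all genes, and 6 lower (GAS5, SNHG1, SNHG5, SNHG8, ZFAS1 and EPB41L4A-AS1), against 14.1%. Genes named here by their call with the block were chosen after their values were seen.

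**Figure D5:**
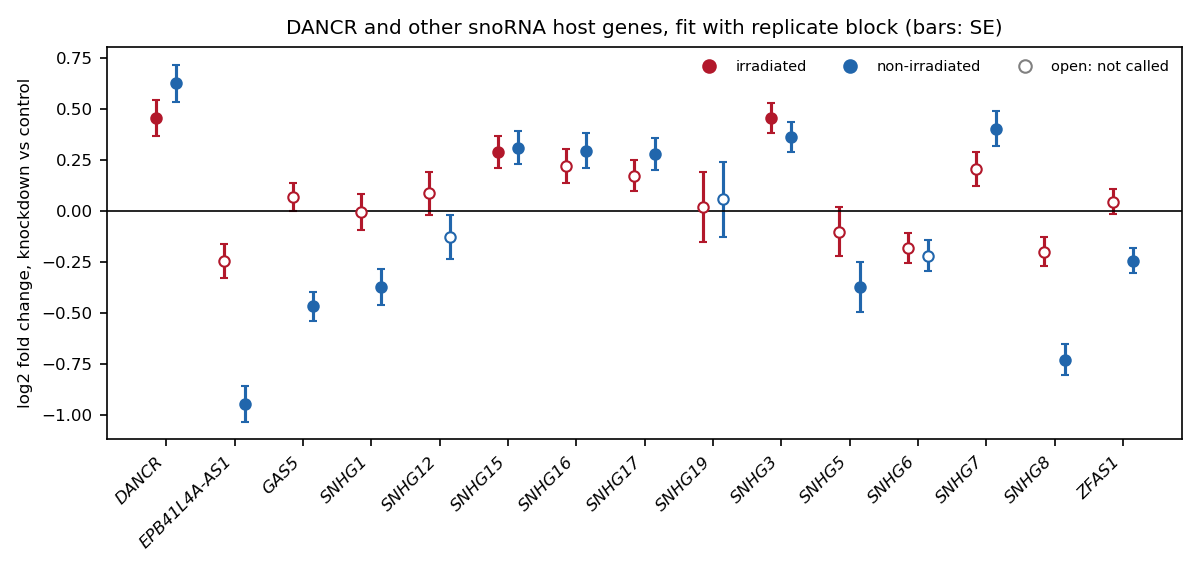
Log2 fold change of knockdown against control for DANCR and 14 other snoRNA host genes in the fit with the replicate block, with SE bars, in irradiated (red) and non-irradiated (blue) cells; filled points were called. DANCR, SNHG3 and SNHG15 are filled above 0 in both states, and EPB41L4A-AS1 and SNHG8 are the lowest without irradiation.

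In irradiated against non-irradiated cells, 5 of the 14 hosts rose in knockdowns (3.58% of all genes were called in either direction) and 1 in controls (2.26%). In knockdowns SNHG8 rose at 1.08, EPB41L4A-AS1 at 0.95, ZFAS1 at 0.80, SNHG3 at 0.57 and GAS5, a growth arrest transcript, at 0.51 (edgeR adjusted p = 0.00399, 0.0109, 0.00499, 0.0482 and 0.0349). In controls ZFAS1 rose at 0.52 (edgeR adjusted p = 0.0388). DESeq2 called 7 hosts in knockdowns and 5 in controls, against 8.38% and 8.02% of all genes. GAS5 stood at 368, 376 and 315 CPM in irradiated and 267, 231 and 244 CPM in non-irradiated knockdowns. Those did not overlap, as for 29.8% of all genes. In controls it stood at 323, 370 and 316 CPM with irradiation and 339, 331 and 354 without it, with overlap. For the difference of knockdown effects edgeR and DESeq2 called 0 of the 14, and 3 had an unadjusted p under 0.05 in edgeR, against 2.04% of all genes.

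Of 16 other well studied long non-coding RNAs found in the tables, 12 passed the filter, and 0 were called by edgeR in either knockdown comparison. DESeq2 called 0 in both, against 1.88% and 6.48% of the genes it gave an adjusted p. An unadjusted p under 0.05 was seen for 0 in irradiated and 1 in non-irradiated cells, against 9.28% and 17.4% of all genes. With the block 1 was higher and 1 lower in irradiated cells, where 11.5% of all genes were called. In non-irradiated cells 1 was higher and 3 lower, where 27.8% of all genes were called. NORAD, a cytoplasmic RNA that binds PUMILIO proteins, was the higher one in both, at 0.31 in irradiated and 0.19 in non-irradiated cells (edgeR adjusted p = 0.00923 and 0.0397). CRNDE was lower in both, at -0.55 and -0.86 (edgeR adjusted p = 0.00468 and 0.000121). It stood at 11.6, 30.5 and 29.4 CPM in irradiated knockdowns, against 14.2, 50.1 and 44.3 in irradiated controls, and at 36.7, 32.8 and 25.0 in non-irradiated knockdowns, against 58.3, 58.9 and 52.0 in non-irradiated controls. MIR22HG, host of a microRNA, was lower at -0.62 and FIRRE, an X-linked nuclear RNA, at -0.69 in non-irradiated cells (edgeR adjusted p = 0.00853 and 0.0327). HOTAIR (11 counts), H19 (16), MEG3 (4) and MIAT (0) were below the filter.

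Of 15 other long non-coding RNAs linked to prostate cancer and found in the tables, 10 passed the filter and 0 were called by edgeR in either knockdown comparison. At an unadjusted p under 0.05 there were 2 in each state, against 9.28% of all genes in irradiated and 17.4% in non-irradiated cells. DESeq2 called 0 in irradiated cells and 2 in non-irradiated ones, PCAT14 and CTBP1-AS. It called 1.88% and 6.48% of the genes it gave an adjusted p. The block called 11.5% of all genes in irradiated and 27.8% in non-irradiated cells. With it PCAT14 was higher in both, at 2.33 in irradiated and 3.19 in non-irradiated cells (edgeR adjusted p = 0.00532 and 0.000991). Its mean was low, at 0.488 CPM, and it passed the filter only through knockdown libraries. A gene kept in this way stands higher in knockdowns by selection, so these values are given as a description. Its counts were 49, 9 and 9 in irradiated knockdowns, against 7, 3 and 3 in irradiated controls, and 23, 20 and 16 in non-irradiated knockdowns, against 2, 1 and 2 in non-irradiated controls, which is at or under the limit of 3 counts. Summed and scaled by depth, the ratio of knockdown to control was 5.69 with irradiation (95% exact interval 3.11 to 11.2) and 9.43 without it (3.82 to 30.1), intervals that cover counting error only. Without both irradiated libraries numbered 1 the irradiated ratio was 3.46 (1.32 to 10.7), and the blocked value of 1.75 was not called (edgeR adjusted p = 0.102). As CPM PCAT14 stood at 1.88, 0.316 and 0.404 CPM in irradiated knockdowns, against 0.267, 0.0932 and 0.114 in irradiated controls, and at 1.27, 0.697 and 0.554 CPM in non-irradiated knockdowns, against 0.126, 0.0422 and 0.0958 in non-irradiated controls. Neither state had overlapping groups for PCAT14, which was so for 13.5% of all genes with irradiation and 31.1% without it. CTBP1-AS was lower in both with the block, at -0.62 and -0.91 (edgeR adjusted p = 0.0381 and 0.00291), and CTBP1-AS2 (0.21) and DRAIC (0.34) were higher in non-irradiated cells (edgeR adjusted p = 0.0331 and 0.0375). Between irradiated and non-irradiated cells PCAT1, a long non-coding RNA of the chromosome 8 region near MYC, rose at 1.86 in knockdowns and 1.57 in controls (edgeR adjusted p = 0.0177 and 0.0413), and SOCS2-AS1 fell at -0.99 and -1.18 (edgeR adjusted p = 0.0432 and 0.0301). These were the 1 higher and 1 lower of the 10 in each comparison, where 3.58% of all genes were called in knockdowns and 2.26% in controls.

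Proteins of the bodies that NEAT1 and MALAT1 mark were read alongside. Of 12 genes for paraspeckle proteins, 0 were called by edgeR in either knockdown comparison, with medians of 0.06 in irradiated and 0.09 in non-irradiated cells. At an unadjusted p under 0.05 there were 0 in irradiated and 2 in non-irradiated cells, against 9.28% and 17.4% of all genes. DESeq2 called 0 in irradiated and 1 in non-irradiated cells, HNRNPH3, against 1.88% and 6.48% of the genes it gave an adjusted p. The block called 11.5% of all genes in irradiated and 27.8% in non-irradiated cells. With the block RBM14, a paraspeckle coactivator, was higher in both, at 0.31 in irradiated and 0.79 in non-irradiated cells (edgeR adjusted p = 0.0426 and 0.000175). NUDT21, a subunit of a cleavage factor that acts on NEAT1 polyadenylation, was lower in both, at -0.28 and -0.35 (edgeR adjusted p = 0.0363 and 0.00566), and HNRNPH3 was lower in non-irradiated cells at -0.34 (edgeR adjusted p = 0.00244). RBM14 stood at 59.2, 53.3 and 65.4 CPM in non-irradiated knockdowns, against 31.9, 34.1 and 36.5 in non-irradiated controls. These groups did not overlap, as for 31.1% of all genes. Between irradiated and non-irradiated cells HNRNPM rose at 0.69 in knockdowns and 0.75 in controls (edgeR adjusted p = 0.0203 and 0.0191), while NEAT1 was called in neither. HNRNPM was the 1 gene of the 12 called in each, against 3.58% of all genes in knockdowns and 2.26% in controls.

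Of 12 genes for nuclear speckle proteins, 0 were called by edgeR or DESeq2 in either knockdown comparison. An unadjusted p under 0.05 was seen for 0 in irradiated and 2 in non-irradiated cells, against 9.28% and 17.4% of all genes. The block called 5.43% of all genes higher in irradiated and 13.7% in non-irradiated cells. All 12 had positive values in the irradiated knockdown comparison (median 0.10) and 11 in the non-irradiated one (median 0.15), against 49.1% and 50.6% of all genes. With the block SRRM1, a splicing coactivator, was higher in both, at 0.21 and 0.43 (edgeR adjusted p = 0.0441 and 0.000571). In non-irradiated cells SRRM2, a scaffold of the speckle, was higher at 0.38, RNPS1 at 0.49 and SRSF7 at 0.31 (edgeR adjusted p = 0.00543, 0.00126 and 0.0175). These directions are of messenger RNA levels, and MALAT1 was called in neither state.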

How the data were processed

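Polyadenylated RNA of 12 libraries was analysed, in 4 groups of 3. The authors deposited raw counts for each gene, in 2 tables with the column layout of featureCounts per the file headers. Per the submitters' processing notes, the tools were STAR 2.5, featureCounts, Subread 1.5.3 and edgeR 3.20.8, on build GRCh38. Not given in the sources used here are the aligner's options, the strand setting, the handling of multiply mapped reads and the annotation release, so counts of overlapping or near-identical genes are uncertain. Words of 50 bases also found in another GENCODE 29 gene made up 1.60% (NEAT1) to 10.0% (TUG1) of the transcripts.

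Totals ran from 14801939 to 33158865 counts, a ratio of 2.24, and deeper libraries carry less counting error. For PCA3, a count of 3, the limit that a count of 0 allows, came to 0.0905 to 0.203 CPM, which covers counting error only. No replicates were alike within sampling noise by a chi-square of their counts.

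Tests used edgeR 4.0.16 (R 4.3.3). Genes passed filterByExpr at a minimum count of 10 and total of 15, libraries were scaled by TMM, and counts were fitted in 1 robust quasi-likelihood model of all 12 libraries with a mean per group (8 residual degrees of freedom, biological coefficient of variation 0.216). Calls are at a Benjamini-Hochberg adjusted p under 0.05 over 17191 genes. Each adjusted p is from edgeR unless DESeq2 1.42.0 is named. Log2 CPM used a prior count of 2. Same-numbered libraries deviated together within each table (correlations 0.23 to 0.30 without irradiation and 0.61 to 0.78 with it) but not across tables (-0.15 to 0.14), so the numbers were taken to pair libraries within a table, and the replicate block was fitted there (4 residual degrees of freedom).

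The members and gene lists were chosen with earlier results of these data known. The text names the 7 RNAs, PRMT5, up to 3 genes of each list with the smallest knockdown p, genes called, neighbours, and the 3 genes most alike. Other scalings, no filter, DESeq2, fits on only the compared libraries and omission of libraries were tried; leaving out both irradiated libraries numbered 1, and levels per kilobase of the longest transcript, were chosen after seeing the data. Some luminal markers and one neighbouring gene are not reported here.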

Additional observations from a re-analysis of the deposited data

How the results depend on the processing

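The 7 fold changes in 5 comparisons gave 492 tested values under alternatives: 445 kept direction and call, 16 gained a call and 31 changed sign. The count of called RNAs, 0 in every comparison, became 1, DANCR, for the knockdown without irradiation with DESeq2 and with only the compared libraries. It became 1, DANCR, for irradiated controls against non-irradiated ones with no filter, with DESeq2, and with the replicate block across tables, where libraries share only a number (0.73, adjusted p = 0.0322). The replicate block gave 4 RNAs for the knockdown without irradiation and 2 with it. Among the 4 was PCA3, whose direction the filter favoured. Without both irradiated libraries numbered 1, DANCR was the 1 RNA called for the knockdown with irradiation, with and without the block, and for irradiation in controls and in knockdowns. Leaving out 1 replicate gave 0 to 1 RNAs for the knockdown with irradiation, the 1 being DANCR without irradiated control 1. DESeq2 gave no adjusted p for PCA3 in the knockdown comparisons. The replicate block changed no other call of the 7 RNAs. The cause of these changes was not tested.

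With library size alone, MALAT1 came to -0.0039 and PVT1 to -0.013 for irradiation in controls, and with no filter NEAT1 came to 0.00048. Omission of both irradiated libraries numbered 1 gave MALAT1 -0.0013 for the knockdown with irradiation, NEAT1 0.13 for irradiation in controls and TUG1 0.080 in knockdowns. Leaving out 1 replicate for the knockdown with irradiation gave ranges of -0.18 to 0.50 for MALAT1, -0.092 to 0.32 for TUG1 and -0.44 to 0.13 for PCGEM1. Without irradiation they were -0.21 to 0.056 for MALAT1, -0.022 to 0.14 for NEAT1, -0.098 to 0.021 for TUG1 and -1.27 to 0.074 for PCGEM1. For irradiation in knockdowns they were -0.27 to 0.080 for TUG1 and -0.79 to 0.18 for PCGEM1, and in controls -0.24 to 0.45 for MALAT1 and -0.17 to 0.13 for NEAT1. For the difference of knockdown effects they were -0.085 to 0.60 for MALAT1, -0.043 to 0.37 for TUG1, -0.24 to 1.11 for PCGEM1, -0.34 to 0.070 for DANCR and -0.048 to 0.10 for PVT1. Of values that kept their sign, leaving out 1 replicate moved DANCR to 0.28 to 0.69 for the knockdown with irradiation and PCGEM1 to -1.25 to -0.26 and PCA3 to 0.39 to 1.18 for irradiation in controls. Depth limits PCA3 above all, at 0 to 20 counts a library.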
